A study of Mus musculus with 8 samples.

Results

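The report concerns 10 genes that TGF-β signalling is known to induce, most of which then restrain it: Pmepa1, Ldlrad4, Bambi, Spsb1, Ski, Skil, Tgif1, Klf10, Tgfbi and Xylt1. They were chosen by name, with earlier results of these data known. All 10 were found once each among the 22597 genes of the deposited count table, and all 10 passed the filter on low counts among 12750 genes tested. They were measured in polyadenylated RNA from mouse lung cells that had been sorted as interstitial macrophages, which lie in the tissue outside the air spaces. Recipients were female CD45.1/CD45.2 IMDTR mice on C57BL/6, also called Cx3cr1-DTR in the labels, irradiated with the thorax shielded. The treatment text gives them as 18 weeks old at irradiation, while the sample records give an age of 12 to 16 weeks. The Tgfbr2_KO group (4 libraries, KO1 to KO4) had received bone marrow from CD45.2 Lyz2Cre Tgfbr2fl/fl donors, in which Cre from the Lyz2 locus deletes the floxed part of the TGF-β type II receptor gene in myeloid cells. The WT group (4 libraries, WT1 to WT4) had received CD45.2 Tgfbr2fl/fl marrow without Cre. Whether the sort also selected donor cells by CD45 type was not given in the sources used here. Both groups were given 50 ng of diphtheria toxin 1 month after the transplant, which removes the recipient's own interstitial macrophages, and were sampled 10 days after the toxin. Both shared the floxed gene, the irradiation and the toxin. Cre was in the Tgfbr2_KO donors alone, and effects of Cre itself and of receptor loss cannot be told apart. The labels do not tie a library to a mouse of its own; p-values then describe the spread among these libraries only, and that spread may be technical.

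TGF-β binds the type II receptor, which activates the type I receptor, which in turn phosphorylates Smad2 and Smad3. These join Smad4 in the nucleus and switch on genes that include brakes on the pathway itself: membrane proteins that hold Smads away from the receptor (Pmepa1, Ldlrad4), a decoy receptor (Bambi), an adaptor that marks the type II receptor for destruction (Spsb1) and nuclear corepressors of Smads (Ski, Skil, Tgif1). In tissue macrophages TGF-β is known as a signal that maintains resident identity. The comparison addresses what macrophages sorted after the niche was emptied express when the donor marrow carries Lyz2Cre with the floxed receptor gene.

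Totals ran between 15597310 (WT1) and 37654133 (WT4) counts. As counted over the whole gene, Tgfbr2 was at 424 to 576 CPM (counts scaled to library size by TMM) in Tgfbr2_KO and 474 to 548 CPM in WT, so the gene total does not set the genotypes apart; the exons removed by Cre were not given in the sources used here. Lyz2, the Cre locus, was at 3440 to 5611 CPM in Tgfbr2_KO and 7285 to 13190 CPM in WT, with no overlap. KO1, WT1 and WT2 held far more RNA of lung tissue cells than the other 5 libraries and are called lung-rich. Summed over 14 lung epithelial markers they were at 3751 to 6711 CPM, against 241 to 379 CPM in the other 5, and 12 of the 14 were higher in each lung-rich library than in every other one. The corresponding ranges were 2963 to 5752 and 315 to 384 CPM for 13 endothelial markers, and 939 to 1544 and 123 to 169 CPM for 12 fibroblast markers. Interstitial macrophage markers (12 genes, all detected) were lowest in KO1, at 8252 CPM, then 11650 and 12080 CPM in WT1 and WT2, and 16370 to 18470 CPM in the other 5. Since both genotypes occur in both sets of libraries, each gene is given over all 8 libraries, within either set, and as a set-adjusted value, for which the model held genotype and library set together. Values within the lung-rich set compare 1 Tgfbr2_KO library with 2 WT libraries and carry no test, and KO1 held more epithelial marker RNA (6711 CPM) than WT1 (4293 CPM) and WT2 (3751 CPM). In these bulk samples, fewer cells of a type and less RNA per cell cannot be told apart.

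**Figure D1:**
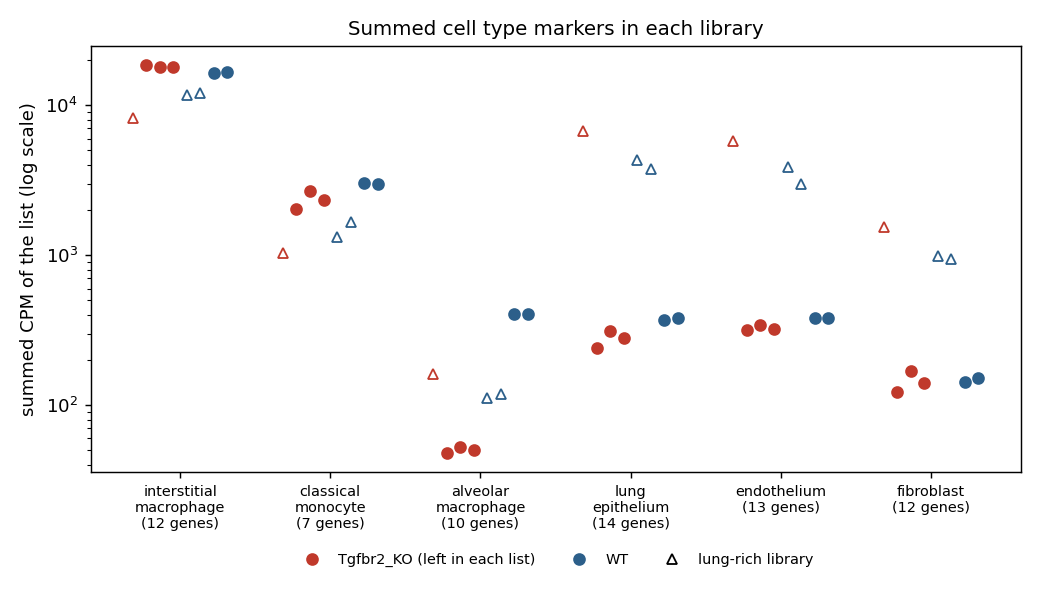
Summed CPM of marker genes of 6 cell types (log axis) in each library, with Tgfbr2_KO left of WT and open triangles for the lung-rich libraries. The epithelial, endothelial and fibroblast sums are highest in KO1, WT1 and WT2, and the interstitial macrophage sum is lowest in KO1 at 8252 CPM.

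Of the 10 genes, 7 were lower in the Tgfbr2_KO libraries within each set: Pmepa1, Ldlrad4, Spsb1, Ski, Skil, Tgfbi and Xylt1. For each of these, KO1 lay below WT1 and WT2, and KO2, KO3 and KO4 lay below WT3 and WT4. This was so for 13.6% of all genes tested, and 0 of the 10 genes were higher in both sets, as 14.8% of all genes were. The 10 genes and the library sets were chosen with earlier results of these data known, so the shares of all genes are given as a description. In KO1 alone 9 of the 10 genes lay below WT1 and WT2, as did 32.8% of all genes, and 1 (Bambi) lay above, as did 46.4%. These shares include genes of lung tissue cells, whose marker sums were higher in KO1. Interstitial macrophage markers summed to 8252 CPM in KO1 against 11650 and 12080 CPM in WT1 and WT2. The highest of them, C1qa and Csf1r, had log2 fold changes of -0.70 and -0.55 among these libraries. Their part in the lung-rich values of the 10 genes was not tested. In the remaining 5 libraries 7 genes were lower without overlap, against 30.2% of all genes, and 0 were higher, against 29.0%. The same 7 genes, and 0 in the other direction, passed as lower after adjustment for set (edgeR quasi-likelihood test, adjusted p under 0.05), where 7.89% of all genes were called lower and 8.59% higher, 16.5% in all. They also passed in the 5 other libraries alone, where 18.7% were called lower and 19.7% higher, 38.5% in all. Over all 8 libraries unadjusted for set only Pmepa1 fell, against 0.102% of all genes called lower, 0.196% called higher and 0.298% in all. At the same time 6 genes had every Tgfbr2_KO library below every WT library, all of the 7 but Tgfbi, against 2.71% of all genes, and 0 had every one above, against 4.19%. Tgif1, Klf10 and Bambi passed in 0 of these 3 fits. The median log2 fold change of the 10 genes was -0.45 over all 8 libraries and -0.48 after adjustment for set, beside -0.01 and 0.03 over all genes.

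**Figure D2:**
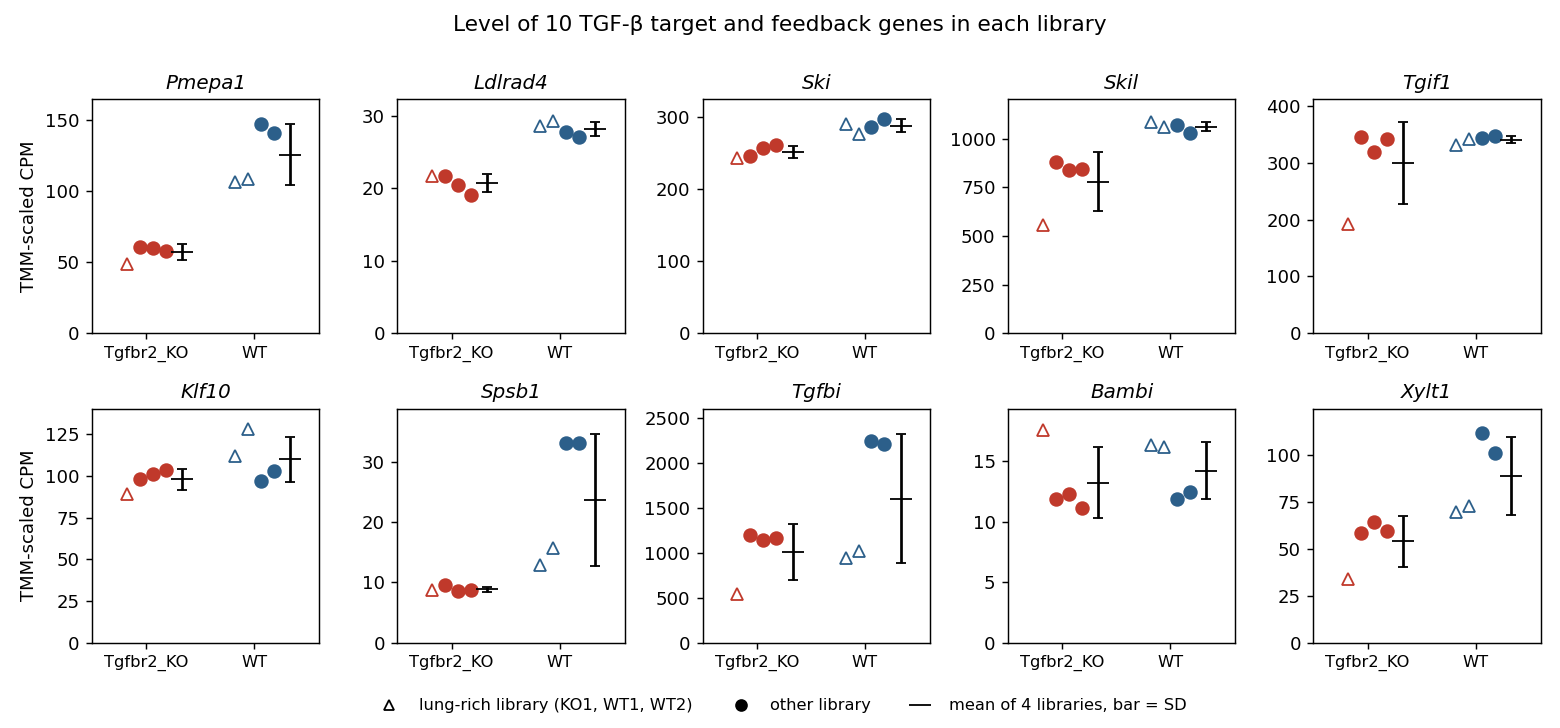
TMM-scaled CPM of the 10 genes in each library, Tgfbr2_KO left of WT, with open triangles for the lung-rich libraries and the mean with its SD (n = 4 each) beside them. Triangles of Tgfbr2_KO lie below triangles of WT, and circles below circles, for Pmepa1, Ldlrad4, Ski, Skil, Spsb1, Tgfbi and Xylt1, while Bambi follows the library set and Tgif1 is low in KO1 alone.

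Promoter sequences from RefSeq (GRCm38.p6, 250 bases before to 50 after the annotated start) were matched by symbol for 4 of the 10 genes, Ski, Spsb1, Tgfbi and Tgif1. The 3 of them among the 7 genes that passed are shown, since these moved the same way with genotype. Capitals mark matches, on either strand, to CAGAC (reverse GTCTG), the short element that Smad3 and Smad4 are known to bind.
Tgfbi, chr13:56609336-56609635, plus strand: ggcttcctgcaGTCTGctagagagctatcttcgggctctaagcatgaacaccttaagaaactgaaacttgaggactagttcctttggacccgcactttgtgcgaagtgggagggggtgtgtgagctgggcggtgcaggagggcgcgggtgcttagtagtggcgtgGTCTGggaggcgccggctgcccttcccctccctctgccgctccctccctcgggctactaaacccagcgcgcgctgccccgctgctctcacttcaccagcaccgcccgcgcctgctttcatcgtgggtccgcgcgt
Spsb1, chr4:149954957-149955256, minus strand: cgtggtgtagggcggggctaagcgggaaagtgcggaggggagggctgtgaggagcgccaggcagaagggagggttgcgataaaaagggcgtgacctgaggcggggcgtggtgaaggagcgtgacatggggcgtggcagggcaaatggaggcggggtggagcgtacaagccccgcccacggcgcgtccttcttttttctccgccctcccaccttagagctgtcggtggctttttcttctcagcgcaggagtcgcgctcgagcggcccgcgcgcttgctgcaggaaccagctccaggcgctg
Ski, chr4:155222486-155222785, minus strand: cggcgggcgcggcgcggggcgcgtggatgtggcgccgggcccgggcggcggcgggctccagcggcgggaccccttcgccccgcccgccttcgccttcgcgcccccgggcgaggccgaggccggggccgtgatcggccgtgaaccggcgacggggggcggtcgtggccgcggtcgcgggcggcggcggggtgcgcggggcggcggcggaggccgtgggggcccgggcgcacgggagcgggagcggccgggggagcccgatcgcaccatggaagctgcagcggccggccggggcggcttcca
The Tgfbi window held 2 matches, starting 239 and 85 bases before the start, and the windows of Spsb1 and Ski held 0. Tgif1, which was level in the 5 other libraries, had 5 windows, and only the one nearest its annotated gene start was searched. That window held 1 match to CAGAC, starting 201 bases before the start. This motif occurs in 49.6% of 32851 such windows, so that a match is common. None of the 4 windows held the palindrome GTCTAGAC, which 0.213% of windows hold, or the AP-1 motif TGAGTCA (reverse TGACTCA), which 5.2% hold. The searched motifs share no full match with each other, and the letters of a window are a description and not a binding site.

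Pmepa1 and Ldlrad4 encode related membrane proteins that bind receptor-activated Smads and keep them from the type I receptor. Pmepa1 (ENSMUSG00000038400, GRCm38 chromosome 2, 173224458 to 173276533, minus strand) was at 49.0, 61.0, 60.1 and 58.2 CPM in KO1 to KO4, against 107, 109, 148 and 141 CPM in WT1 to WT4. All 4 Tgfbr2_KO libraries lay below all 4 WT libraries, by a wide margin in either set. Its mean was 57.1 ± 5.48 CPM in Tgfbr2_KO and 125.9 ± 21.3 CPM in WT (SD, n = 4 each). It differed by -1.14 on the log2 scale over all 8 libraries (SE 0.14, edgeR adjusted p = 0.0314) and -1.22 set-adjusted (SE 0.05, edgeR adjusted p = 3.37e-05). Without the lung-rich libraries it was -1.27 and among them -1.20, so KO1 held 45.6% of the mean of WT1 and WT2, and the 3 other Tgfbr2_KO libraries held 41.4% of the mean of WT3 and WT4. Its set-adjusted p was the smallest among the 10 genes. The call over all 8 libraries ended when any library but KO1 was left out (log2 fold changes -1.21 to -1.06, edgeR adjusted p from 0.0578 without WT1 to 0.223 without KO4). The edgeR adjusted p was 0.0857 without WT2, 0.189 without KO2, 0.198 without WT3, 0.216 without WT4 and 0.219 without KO3. Each of these fits called 0 of all genes tested.

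Ldlrad4 (ENSMUSG00000024544, chromosome 18, 67933257 to 68268630, plus strand) showed a smaller difference with little spread between libraries. It was at 21.7, 21.7, 20.5 and 19.1 CPM in KO1 to KO4 and at 28.6, 29.4, 27.9 and 27.2 CPM in WT1 to WT4, again without overlap, and the lung-rich libraries did not stand apart from the others of their genotype. Over all 8 libraries its log2 fold change was -0.44 (SE 0.07, 95% interval -0.60 to -0.29) and just missed the threshold (edgeR adjusted p = 0.0514). Set-adjusted, it was -0.42 (SE 0.06, edgeR adjusted p = 0.00302), and it was -0.42 also without the lung-rich libraries and -0.48 among them. Ldlrad4 shares 2798 bp of exon with Fam210a on the opposite strand, and use of strand in the counting was not given in the sources used here. For Fam210a itself the difference was -0.04 on the log2 scale over all 8 libraries (edgeR adjusted p = 1.00).

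Bambi (ENSMUSG00000024232, chromosome 18, 3507923 to 3516404, plus strand), a receptor-like protein without a kinase that blocks receptor complexes, followed the library set and not the genotype. It was at 17.6, 11.9, 12.3 and 11.1 CPM in KO1 to KO4 and at 16.3, 16.2, 11.9 and 12.5 CPM in WT1 to WT4. The 3 lung-rich libraries were the 3 highest. The WT1 and WT2 mean was 1.33 times that of WT3 and WT4, and KO1 was 1.49 times the mean of KO2 to KO4, while the summed endothelial markers were 8.90 and 17.6 times as high; their part in the level of Bambi was not tested. The log2 fold change was -0.10 over all 8 libraries (95% interval -0.53 to 0.32; -0.27 without KO1 to -0.03 without WT1, with -0.045 without KO4, -0.035 without WT2, -0.185 without WT3 and -0.165 without WT4), 0.01 set-adjusted (-0.16 to 0.18, edgeR adjusted p = 0.933) and -0.05 in the 5 other libraries (-0.26 to 0.17). The sign of its set-adjusted value turned in 7 of its 12 alternatives, all near 0.

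Spsb1 (ENSMUSG00000039911, chromosome 4, 149896283 to 149955043, minus strand), a SOCS-box adaptor of a ubiquitin ligase that limits the type II receptor, had the largest fall of the 10 genes in the 5 other libraries. It was at 8.66, 9.50, 8.56 and 8.74 CPM in KO1 to KO4, against 12.95, 15.6, 33.1 and 33.2 CPM in WT1 to WT4. The Tgfbr2_KO libraries were level with each other in both sets, whereas the lung-rich WT libraries were at 0.432 times the level of WT3 and WT4. Over all 8 libraries the log2 fold change was -1.42 (SE 0.33, edgeR adjusted p = 0.158), and set-adjusted it was -1.48 (SE 0.21, edgeR adjusted p = 0.00422). Without the lung-rich libraries it was -1.88 (SE 0.08), and among them -0.79. The lung-rich value minus the other was 1.16, which rests on KO1, the 1 Tgfbr2_KO library of its set. Exons of Spsb1 share 103 bp with an antisense transcript that is not a row of the count table.

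Ski and Skil encode the corepressors SKI and SnoN, which sit on Smad complexes and silence their targets until TGF-β triggers their breakdown. Ski (ENSMUSG00000029050, chromosome 4, 155154075 to 155222592, minus strand) was at 242, 246, 257 and 260.3 CPM in KO1 to KO4, against 291, 276, 286 and 297 CPM in WT1 to WT4. The groups did not overlap, though the gap was narrow, and neither set stood apart. Over all 8 libraries it differed by -0.19 on the log2 scale (SE 0.07, edgeR adjusted p = 0.329). The set-adjusted value was -0.21 (SE 0.05, edgeR adjusted p = 0.0195), beside -0.20 without the lung-rich libraries and -0.29 among them. Set-adjusted, Ski did not pass without KO2, KO3, KO4, WT3 or WT4 (edgeR adjusted p = 0.0673, 0.0531, 0.0559, 0.0597 and 0.101).

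Skil (ENSMUSG00000027660, chromosome 3, 31095058 to 31122577, plus strand) was at 554, 879, 839 and 845 CPM in KO1 to KO4, against 1086, 1061, 1073 and 1031 CPM in WT1 to WT4. The WT libraries were alike in both sets, and KO1 lay far below the other Tgfbr2_KO libraries, at 0.649 times their mean. Its log2 fold change was -0.45 over all 8 libraries (SE 0.16, edgeR adjusted p = 0.353) and -0.53 set-adjusted (SE 0.12, edgeR adjusted p = 0.0223). KO2 to KO4 against WT3 and WT4 gave -0.30 and KO1 against WT1 and WT2 gave -1.02, a difference of -0.65 that rests on KO1. Without KO1 the set-adjusted value was -0.30 (edgeR adjusted p = 1.36e-04), and Skil then passed unadjusted for set too (-0.32, edgeR adjusted p = 0.0359). Set-adjusted, it did not pass without KO3, KO4 or WT3 (edgeR adjusted p = 0.0581, 0.0594 and 0.0608).

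Tgif1 (ENSMUSG00000047407, chromosome 17, 70844205 to 70853546, minus strand), a homeodomain corepressor of Smads, was nearly level in 7 libraries and low in KO1. It was at 192, 345, 319 and 341 CPM in KO1 to KO4 and at 332, 343, 343 and 347 CPM in WT1 to WT4. The log2 fold change was -0.04 in the 5 other libraries (95% interval -0.11 to 0.04, edgeR adjusted p = 0.419), and -0.88 in the lung-rich ones. The values of the sets differed by -0.77, which again rests on KO1. Over all 8 libraries the value was -0.19 (edgeR adjusted p = 0.944; -0.026 without KO1) and, set-adjusted, -0.31 (edgeR adjusted p = 0.192; -0.041 without KO1).

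Klf10 (ENSMUSG00000037465, chromosome 15, 38291463 to 38300706, minus strand), a zinc-finger factor first described as an early TGF-β-induced gene, did not pass in any fit of the genotypes. It was at 88.8, 98.3, 101 and 103.5 CPM in KO1 to KO4 and at 112, 128, 97.0 and 103 CPM in WT1 to WT4. The genotypes overlapped in the 5 other libraries, which gave a log2 fold change of 0.01 (95% interval -0.08 to 0.10, edgeR adjusted p = 0.846), a sign that turned when KO4 or WT3 was left out. In the lung-rich libraries, with KO1 alone for Tgfbr2_KO, it was -0.50, and the lung-rich value minus the other was -0.45. The value over all 8 libraries was -0.17 (edgeR adjusted p = 0.711) and -0.085 without WT2. Set-adjusted it was -0.14 (edgeR adjusted p = 0.34), with 0.013 without KO1, -0.087 without WT2 and -0.248 without WT3.

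In an edgeR fit with genotype, set and their interaction, the interaction passed for 4 of the 10 genes, Skil, Tgif1, Klf10 and Spsb1, against 18.9% of all genes. It was negative for Skil, Tgif1 and Klf10, as for 10.1% of all genes, and positive for Spsb1, as for 8.84%. The fit assumes that KO1, the lone lung-rich Tgfbr2_KO library, varies like the others, and a difference between the sets and a deviation of KO1 alone cannot be told apart. Beside these, summed interstitial macrophage markers in KO1 were 0.455 times those of the other Tgfbr2_KO libraries, while WT1 and WT2 were at 0.718 times WT3 and WT4; their part in these values was not tested. For Pmepa1, Ldlrad4, Ski, Tgfbi and Bambi the interval of the difference between sets included 0. For Xylt1 it was -0.50 to -0.03 and the adjusted p was 0.107.

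**Figure D3:**
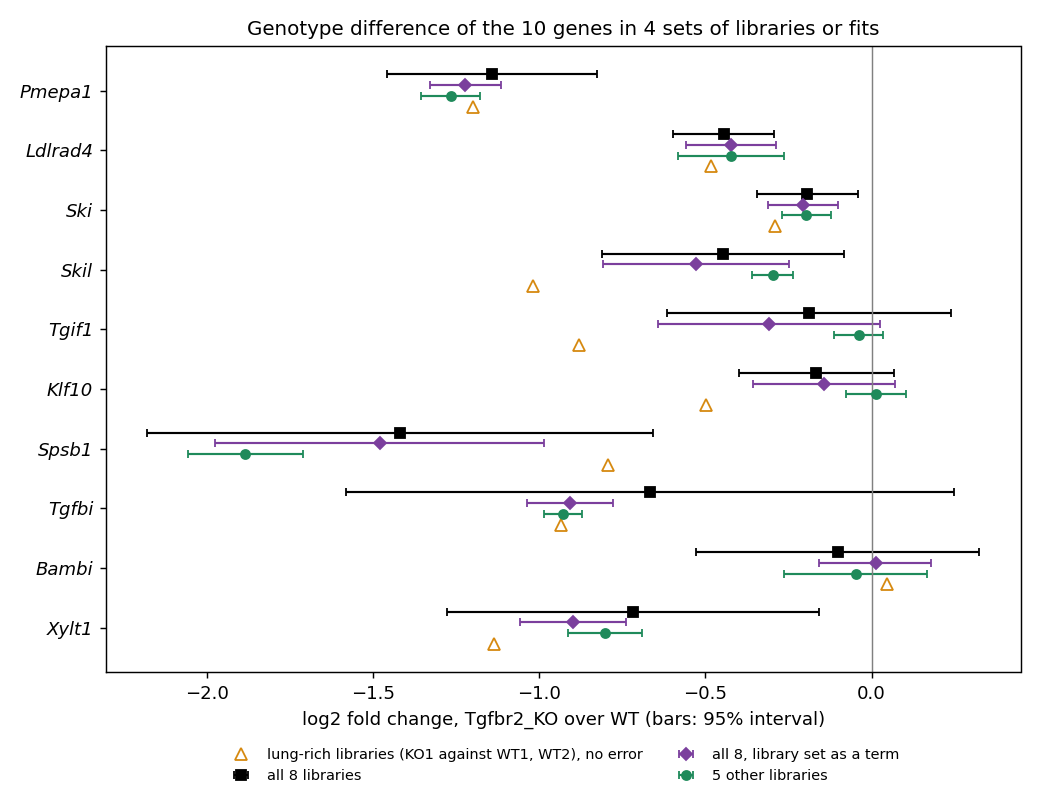
Log2 fold change of Tgfbr2_KO over WT for the 10 genes, from all 8 libraries, set-adjusted, in the 5 other libraries (bars are 95% intervals) and among the lung-rich libraries (open triangles, 1 Tgfbr2_KO library, no error). The 4 values of Pmepa1 lie between -1.27 and -1.14, those of Spsb1 between -1.88 and -0.79, and those of Bambi on both sides of 0.

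Tgfbi and Xylt1 act outside the Smad loop. Tgfbi (ENSMUSG00000035493, chromosome 13, 56609523 to 56639562, plus strand) encodes a secreted matrix protein that binds collagens and integrins and is abundant in monocytes and macrophages. It was at 538, 1196, 1144 and 1167 CPM in KO1 to KO4, against 939, 1025, 2243 and 2212 CPM in WT1 to WT4. Within either set the genotypes were far apart, but KO2 to KO4 lay above the lung-rich WT1 and WT2, so the genotypes overlapped over all 8 libraries. The log2 fold change was accordingly -0.67 with a wide interval over all 8 (95% interval -1.58 to 0.25, edgeR adjusted p = 0.699) and -0.91 set-adjusted (SE 0.06, -1.04 to -0.78, edgeR adjusted p = 1.64e-04). It was -0.93 both without the lung-rich libraries and among them, where Tgfbr2_KO held 52.5% and 54.8% of the WT mean. Classical monocyte markers (7 genes) summed to 2029 to 2663 CPM in KO2 to KO4 against 3002 and 3011 CPM in WT3 and WT4. The sum was 1039 CPM in KO1 against 1315 and 1654 CPM in WT1 and WT2. Chil3 stands in this list and also in the alveolar macrophage list, and Fn1 stands also in the list of other TGF-β-induced genes described below. Fn1, the monocyte marker with the highest mean, overlapped, at 1205, 1929 and 1550 CPM in KO2 to KO4 against 1737 and 1717 CPM in WT3 and WT4. Ccr2, the next, was at 685, 539 and 604 CPM against 802 and 808 CPM in these libraries. Alveolar macrophage markers (10 genes) were at 48.4 to 52.9 CPM in KO2 to KO4 against 408 and 404 CPM in WT3 and WT4, where Chil3 alone was at 15.8 to 17.6 CPM and at 348 and 347 CPM, but at 162 CPM in KO1 against 111 and 119 CPM in WT1 and WT2, where the value of Tgfbi was also -0.93. In these 3 libraries Car4, which lung endothelium also expresses, made up 107 CPM in KO1 against 64.1 and 54.9 CPM in WT1 and WT2, and Chil3 was at 20.4 CPM in KO1 against 17.5 and 30.0 CPM in WT1 and WT2. The part of these markers in the level of Tgfbi was not tested.

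Xylt1 (ENSMUSG00000030657, chromosome 7, 117380979 to 117673580, plus strand) encodes the xylosyltransferase that starts glycosaminoglycan chains on proteoglycans. It was at 34.0, 58.5, 64.4 and 59.5 CPM in KO1 to KO4, against 69.97, 72.8, 111.8 and 101 CPM in WT1 to WT4. Every Tgfbr2_KO library lay below every WT library, and within each genotype the lung-rich libraries were the lowest. It differed by -0.72 on the log2 scale over all 8 libraries (SE 0.24, edgeR adjusted p = 0.329) and by -0.90 set-adjusted (SE 0.07, edgeR adjusted p = 2.81e-04), with -0.80 without the lung-rich libraries and -1.14 among them.

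Of the 7 genes that fell, 3 still passed, set-adjusted, in an alternative in which WT3 and WT4 were summed into 1 library and KO4 was left out: Pmepa1 (-1.22, edgeR adjusted p = 0.011), Tgfbi (-0.93, edgeR adjusted p = 0.0258) and Xylt1 (-0.95, edgeR adjusted p = 0.0258). Ldlrad4, Spsb1, Skil and Ski did not, though their values there were -0.43, -1.35, -0.65 and -0.25 (edgeR adjusted p = 0.0595, 0.0642, 0.135 and 0.159). WT3 and WT4 lay close together, with a median chi-square 1.87 times the one that counting noise alone gives, beside 2.07 to 3.06 between KO2, KO3 and KO4 and 4.37 between WT1 and WT2. If these libraries are not independent, the errors within the 5 other libraries are too small.

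Levels per length of merged annotated exons set the 10 genes in order, which CPM alone do not. In WT, Tgfbi was at 426 CPM per kb, followed by Skil at 110, Tgif1 at 60.6, Ski at 51.7, Klf10 at 26.3 and Pmepa1 at 25.6 CPM per kb. Xylt1 (9.21), Spsb1 (5.39), Ldlrad4 (5.26) and Bambi (2.80 CPM per kb) were low. The order of 2 neighbouring pairs turned between the library sets. Klf10 was at 28.7 and Pmepa1 at 21.9 CPM per kb in the lung-rich WT libraries, against 23.9 and 29.4 CPM per kb in WT3 and WT4. Ldlrad4 was at 5.4 and Spsb1 at 3.25 CPM per kb in the lung-rich WT libraries, against 5.12 and 7.53 CPM per kb in WT3 and WT4. In Tgfbr2_KO, Tgfbi was at 268 CPM per kb, Klf10 at 23.4 and Pmepa1 at 11.6 CPM per kb.

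Of 113 other genes in 7 lists, 108 were tested; 3 fell and 0 rose over all 8 libraries (Smurf1, Itgav and Extl3), and 10 fell and 10 rose set-adjusted, near the 7.89% and 8.59% of all genes called lower and higher in that fit. In the 5 other libraries 33 of 107 fell and 24 rose, where 18.7% of all genes were called lower and 19.7% higher. Their median log2 fold change was -0.09 over all 8 libraries, 0.01 set-adjusted and -0.08 in the 5 other libraries. The 3 calls over all 8 libraries ended, as that of Pmepa1 did, when any library but KO1 was left out, where 0 of all genes were called. The shares of all genes just given are the background for each list below. Among 11 receptors and co-receptors, 0 passed over all 8 libraries and 1 fell and 1 rose set-adjusted, while 4 fell and 1 rose in the 5 other libraries. The type I receptor Tgfbr1 fell, at 194, 285, 304 and 295 CPM in KO1 to KO4 against 405, 507, 675 and 647 CPM in WT1 to WT4 (-1.19 set-adjusted, SE 0.08, edgeR adjusted p = 1.76e-04; -1.05 over all 8, edgeR adjusted p = 0.122). The co-receptor Tgfbr3 rose set-adjusted (0.84, edgeR adjusted p = 0.00542) and, like Bambi, was highest in the lung-rich libraries. The activin receptor genes Acvr1 and Acvr2a had -0.18 and -0.14 over all 8 libraries and did not pass. Among 14 Smads and Smad ubiquitin ligases, Smurf1 fell in both fits (79.7 ± 1.76 CPM in Tgfbr2_KO and 101.6 ± 0.77 CPM in WT, SD, n = 4 each; -0.35 over all 8, edgeR adjusted p = 0.035). Wwp1 rose set-adjusted (0.97, edgeR adjusted p = 0.0276); in the lung-rich libraries Wwp1 had 0.12 against 1.39 in the 5 other libraries. The inhibitory Smad gene Smad7, the best known feedback gene of the pathway, had -0.57 over all 8 libraries (edgeR adjusted p = 0.79) and -0.42 set-adjusted (edgeR adjusted p = 0.109). It fell in the 5 other libraries (-0.71, edgeR adjusted p = 8.66e-07), with -0.02 in the lung-rich ones. Smad3 had 0.18 over all 8 libraries, where it did not pass, and rose in the 5 other libraries (0.22, edgeR adjusted p = 0.00126). Of this list 4 fell and 2 rose in the 5 other libraries.

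Among 15 genes of ligands and their activation, the integrin subunit gene Itgav fell over all 8 libraries (-0.72, edgeR adjusted p = 0.035), and Itgav, its partner Itgb5 (-0.99, edgeR adjusted p = 1.76e-04) and the ligand gene Tgfb3 (-1.11, edgeR adjusted p = 0.00853) fell set-adjusted. Lrrc32, which encodes a protein that anchors latent TGF-β on the cell surface, rose set-adjusted (0.63, edgeR adjusted p = 0.00137). The medians of this list were -0.19 over all 8 libraries and -0.01 set-adjusted, and in the 5 other libraries 6 of its genes fell and 4 rose.

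Among 30 other TGF-β-induced genes, 0 passed over all 8 libraries, while 3 fell (Bhlhe40 and Rgs2 among them) and 4 rose (Hmox1, Id3, Igf1 and Tsc22d1) set-adjusted, and the median was -0.14 and 0.10 in these fits. In the 5 other libraries 10 of 29 fell and 10 rose. Hmox1, the haem-degrading oxygenase, rose set-adjusted (1.06, edgeR adjusted p = 0.0328), and had 1.53 without the lung-rich libraries and 0.08 among them. Spp1, which encodes osteopontin, had -1.11 set-adjusted (edgeR adjusted p = 0.0526); it fell in the 5 other libraries (-1.78, edgeR adjusted p = 6.4e-16), with -0.04 in the lung-rich ones. Of 13 corepressor partners of Ski and Tgif1, 0 passed over all 8 libraries and 1 fell set-adjusted, with a median of 0.02 in both fits. In the 5 other libraries 2 fell and 3 rose. Hdac1, Prmt5 and Sap18 had 0.12, -0.18 and -0.10 over all 8 libraries and did not pass, while Hdac1 rose in the 5 other libraries (0.16, edgeR adjusted p = 0.00913). Of 13 tested paralogues of the 10 genes, 0 passed over all 8 libraries and 1 rose set-adjusted, Klf9 (0.47, edgeR adjusted p = 0.00313). Klf16, Stab1 and Spsb3, the 3 of that list with the smallest p, had -0.25, 0.40 and -0.27 over all 8 libraries (edgeR adjusted p = 0.411, 0.496 and 0.595), and in the 5 other libraries Klf16 and Spsb3 fell (-0.28 and -0.39, edgeR adjusted p = 0.00756 and 0.004) and Stab1 rose (0.62, edgeR adjusted p = 5.47e-09). In all, 4 paralogues fell and 2 rose there. Of 12 enzymes that extend or modify the chains begun by Xylt1, Extl3, a glucosaminyltransferase that commits chains to heparan sulfate, fell over all 8 libraries (94.6 ± 6.04 CPM in Tgfbr2_KO against 144 ± 7.56 CPM in WT, SD, n = 4 each; -0.61, edgeR adjusted p = 0.0289), and set-adjusted Extl3 fell (-0.61, edgeR adjusted p = 8.88e-04) while Csgalnact2 and Ext1 rose (0.23 and 0.21, edgeR adjusted p = 0.0173 and 0.0364). In the 5 other libraries 3 of these enzymes fell and 2 rose.

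**Figure D4:**
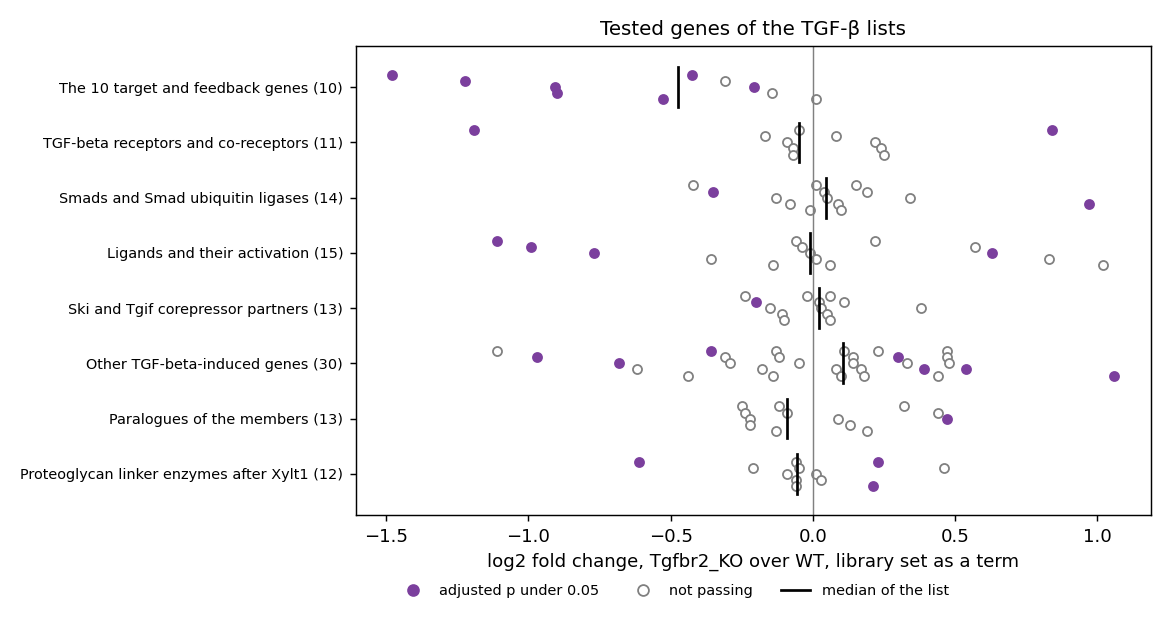
Log2 fold change of Tgfbr2_KO over WT with library set in the model, for each tested gene of the 10 target and feedback genes and of 7 other lists (number of tested genes in brackets), filled where the adjusted p was under 0.05, with a line at the median of each list. The 10 genes have their median at -0.48 and 0 filled points above 0, while the other lists have medians between -0.09 and 0.10 and filled points on both sides or on 1 side only.

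The genes whose profile was most like that of Pmepa1 over the 8 libraries were Tmem119, Tgfbr1, Usp2 and Itgb5, with root mean square differences of 0.113, 0.14, 0.154 and 0.156 between centred log2 CPM, among 8670 genes. A profile with no variation at all would differ from Pmepa1 by 0.591. Tmem119, a membrane protein known from microglia, was at 30.2 to 34.5 CPM in Tgfbr2_KO and 55.3 to 78.7 CPM in WT. Closest to Ldlrad4 were Smurf1, the calcium channel gene Itpr2, the cytolinker gene Dst and Nbeal2, with differences of 0.0638, 0.0675, 0.0685 and 0.0716, against 0.23 for a flat profile. All 8 of these genes had every Tgfbr2_KO library below every WT library, as 2.71% of all genes did. They were picked for profiles like those of Pmepa1 and Ldlrad4, which have that order themselves, so this count is no separate result.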

How the data were processed

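Per the labels' protocols, TRIzol-extracted RNA was made into stranded, polyadenylated libraries and read on a NovaSeq. The authors deposited estimated counts per gene, merged from salmon per the file name, with no scaling for library size. Of the values of a library, 81.8% to 84.8% were exactly whole, with zeros counted as whole. The genome build GRCm38 and the tool DESeq2 1.40.1 stand in the submitters' processing notes. Version of salmon, strand setting, annotation and any filter were not given in the sources used here. Gene positions and exons are from GENCODE M21 (GRCm38).

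Rounded counts were tested with edgeR 4.0.16 (R 4.3.3) after filterByExpr (minimum count 10, minimum total 15) and TMM scaling, by the robust quasi-likelihood test of group over all genes, adjusted by Benjamini-Hochberg with a threshold of 0.05. CPM are TMM-scaled. Totals are sums over the 22597 genes of the table, and 3 counts, the floor, were 0.0843 to 0.177 CPM, so no gene described is near it.

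The genes, the lists, the library sets and the tests were chosen with earlier results of these data known. Named pathway genes were up to 3 per list with the smallest p, plus Tgfbr2, Tgfbr1, Smad7 and Lyz2; Tgfbr3, Bhlhe40, Rgs2, Id3, Igf1, Tsc22d1, Klf9, Lrrc32 and Fam210a were named after their values were seen. A few pathway genes are not reported here. Profiles were compared on log2 CPM (prior count 2) over genes with a mean of at least 10 CPM. Alternatives were scaling, filter, DESeq2 1.42.0, limma 3.58.1 (voom), a replicate block and left-out libraries. On simulated counts for 12750 genes, changes of 1 log2 unit were recovered for 46% of changed genes over all 8 libraries and for 74% after adjustment for set. Changes of 0.5 log2 units were recovered for 4% and 48%, and changes of 0.25 log2 units for 0% and 2%. A gene with a change of this size that did not pass may therefore still differ.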

Additional observations from a re-analysis of the deposited data

Results flagged for a closer look

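Within the Tgfbr2_KO group KO1 stood apart from the other 3 libraries for 3 genes, by a gap to its nearest neighbour, divided by the range of the group, above Dixon's 95% critical value for 4 values. The ratio was 0.878 for Skil (554 CPM in KO1, next 839 CPM), 0.83 for Tgif1 (192 and 319 CPM) and 0.921 for Tgfbi (538 and 1144 CPM). Chance flags about 1 in 20 groups of 4 like libraries, and 3 of 20 groups were flagged here. KO1 is the 1 lung-rich library among the Tgfbr2_KO libraries, so this rate is no yardstick for its gaps. For Tgfbi, KO1 was at 0.46 times the mean of KO2 to KO4, and WT1 and WT2 were at 0.441 times that of WT3 and WT4. The same ratios were 0.649 and 1.02 for Skil and 0.572 and 0.978 for Tgif1. The part of library set in these gaps was not tested.

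For 4 genes the interaction of genotype and library set passed in edgeR, with KO1 as the lone lung-rich Tgfbr2_KO library, assumed to vary like the others. The log2 fold change in the lung-rich libraries minus that in the other 5 was -0.65 for Skil, -0.77 for Tgif1, -0.45 for Klf10 and 1.16 for Spsb1 (edgeR adjusted p = 1.03e-04, 8.57e-05, 0.0118 and 0.0011). A difference between the sets and a deviation of KO1 alone cannot be told apart.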

How the results depend on the processing

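Over all 8 libraries 38 genes were called, of them 1 of the 10 target and feedback genes and 3 of the other pathway genes. With DESeq2's size factors, and with upper-quartile scaling, 2 of the 10 genes were called, the second being Ldlrad4 (edgeR adjusted p = 0.0422 and 0.0478). With no filter 1 pathway gene was called. The DESeq2 Wald test called 527 genes, 4 of the 10 and 11 pathway genes. The replicate block gave 0 calls of each kind (1479 genes at an unadjusted p under 0.05), with Pmepa1 at -1.13 (edgeR adjusted p = 0.105), but the numbers do not pair the libraries: deviations of same-numbered libraries correlated at 0.867, -0.794, 0.694 and 0.753, and KO1 correlated best with WT2 (0.88). Leaving out 1 library gave 0 to 860 genes, 0 to 3 of the 10 and 0 to 19 pathway genes; the highest counts came without KO1, and the 7 others gave 0 with 807 to 1451 genes at an unadjusted p under 0.05. Set-adjusted, leaving out 1 library gave 769 to 3993 genes in place of 2101, and 5 to 7 of the 10 genes; summing WT3 and WT4 without KO4 gave 185 genes and 3 of the 10. In the 5 other libraries, leaving out 1 gave 3217 to 5078 genes in place of 4856 and 7 of the 10 genes each time, with a lone WT library assumed to vary like Tgfbr2_KO. Signs turned for: Bambi set-adjusted (-0.003 with DESeq2's size factors, -0.001 with DESeq2, and -0.049 to 0.022 over left-out libraries), Klf10 set-adjusted (0.013 without KO1; -0.248 to 0.013 over left-out libraries), and Klf10 in the 5 other libraries (-0.004 without KO4 and -0.028 without WT3; -0.028 to 0.059 over left-out libraries). Causes were not tested. The median log2 fold change of all genes was -0.008 with TMM and -0.016 with either other scaling.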
